A study of Arabidopsis thaliana with 12 samples.

Results

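The genes described here are those whose probes gave a bright and nearly equal signal before and after a short exposure to light. A probe was included if it named exactly 1 gene, if its mean log2 signal lay above the 70th percentile of all probes, and if its mean in light and its mean in the dark differed by less than 0.3 on the log2 scale, a 1.23-fold difference. Of 3439 probes on the array, 692 named 1 gene, 183 of these were above the brightness limit, and 53 met all conditions. These 53 probes stand for 53 different genes. From 8 genes named for omission, PSBY, NdhN and NTRC met both limits and 5 others were too dim. The genes were thus selected on 2 measured values, the mean level and the light minus dark difference, so both are given below as a description and no test is read from them.

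The array measured RNA of wild-type Arabidopsis thaliana of the Landsberg ecotype. One group of 6 samples came from plants adapted to darkness for 12 h. The other 6 samples came from plants that received 30 min of light following such a dark period. The labels number the samples of each group 1 to 6, and give neither the organ, the age of the plants nor the number of plants behind a sample. No plants were kept dark for those extra 30 min, and the effects of light and of time passing cannot be told apart.

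When light returns after a night, photoreceptors and signals from the chloroplast alter the transcription of many nuclear genes within minutes. Against this background, transcripts whose level stays the same are used as references: in quantitative PCR the signal of a gene of interest is divided by that of one or more reference genes. A transcript can look steady on average because every sample gives the same value, or because high and low samples balance each other. The values of the single samples distinguish these cases.

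The deposited intensities are on a linear scale up to 100 whose reference is unknown, with column sums of 3247 to 3321 for dark samples and 3532 to 3666 for light samples. Column medians averaged 0.467 ± 0.0202 over dark samples and 0.678 ± 0.00794 over light samples (SD, n = 6). Because of this gap, the selection used values after quantile normalization, which gives every array the same distribution, and "normalized" below refers to these log2 values. Equal normalized values therefore mean an equal place within the array, and the deposited intensities of the same gene can still differ. Consecutive sample numbers (1 and 2, 3 and 4, 5 and 6) are called number pairs, because they gave similar values for some genes, such as AT1G67800. How alike they were across the array was not measured, and for other genes they differed. Dark samples 1 and 2 of AT1G07460 had 0.925 and 2.15, and dark samples 5 and 6 of AT2G26680 had 2.18 and 0.651 (deposited intensities). No label says what the numbers or the pairs mark, and nothing says that the samples came from separate plants, so p-values measure only the spread between samples, which may be technical. The signal of a probe also depends on the probe, so brightness does not rank the genes by amount of transcript.

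**Figure D1:**
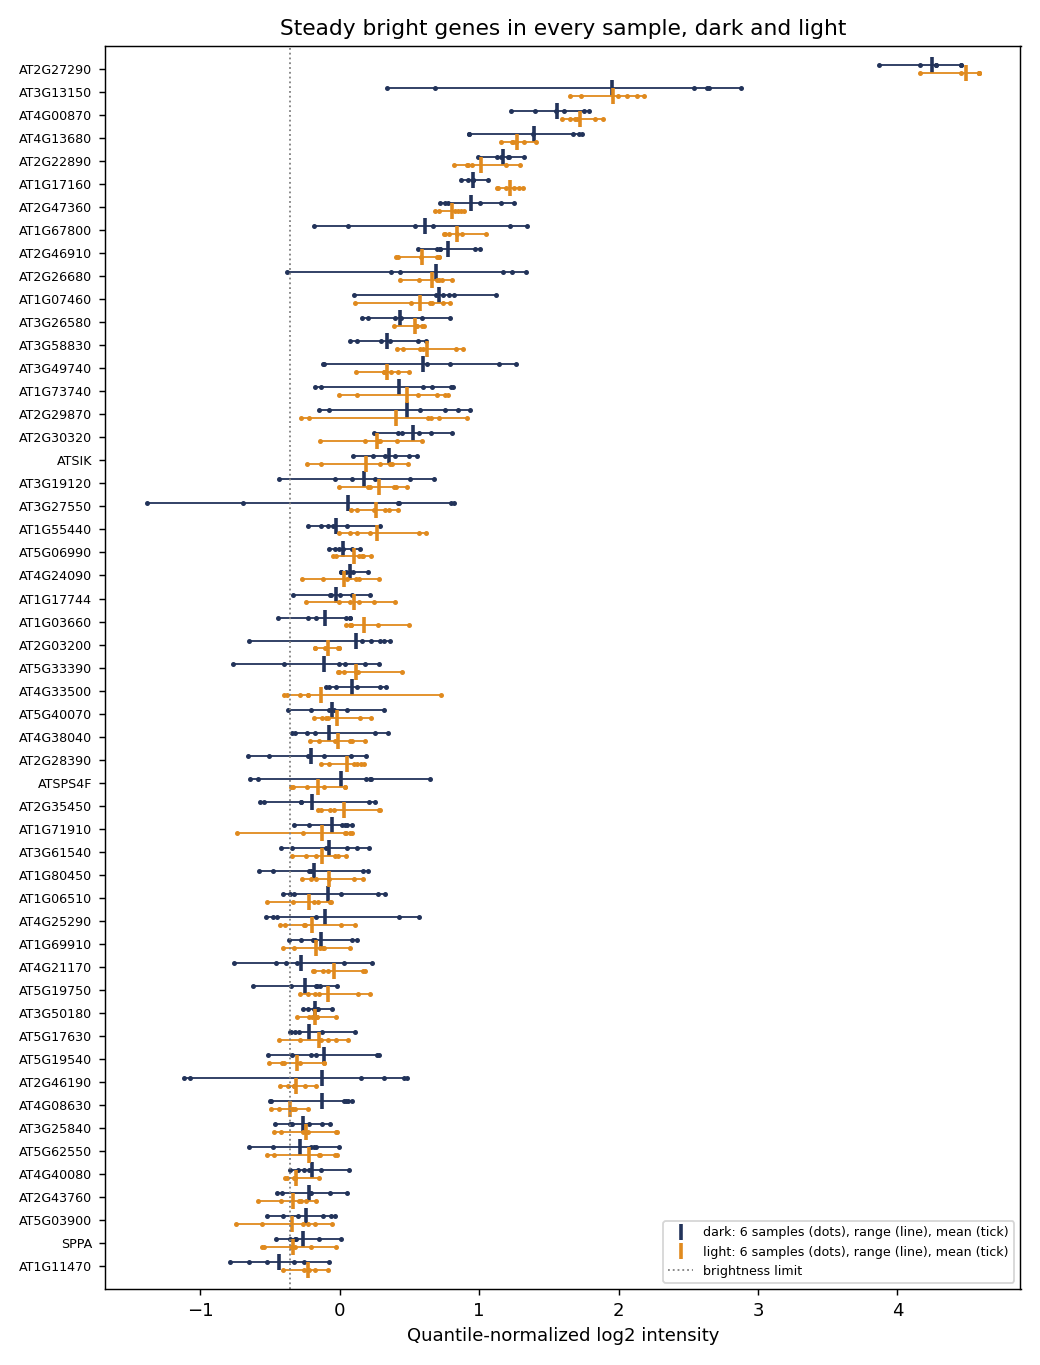
Quantile-normalized log2 intensity (x axis) of the 53 genes (y axis, brightest on top) in the 6 dark and 6 light samples. Dots are samples, lines the range and ticks the mean of a group, and the dotted line marks the brightness limit of -0.35. Most genes lie within 1 log2 unit of the limit, and several dark ranges, such as that of AT3G13150, are far wider than the light range.

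The 53 means ran from -0.33 to 4.37 on the normalized log2 scale, and 43 of them lay within 1 log2 unit of the limit of -0.35. Light was higher for 26 genes and lower for 27, and their median light minus dark difference was -0.0034. For 18 genes the difference was under 0.1 in size, for 20 it was from 0.1 to under 0.2, and for 15 it was 0.2 or more. No value of any of these genes was at the floor set for dim signals.

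Just inside the limit on the difference lay AT1G55440 at 0.29, AT3G58830 at 0.29 and AT1G03660 at 0.28 (normalized log2 differences). Just outside it lay HEMA3 at 0.31, AT5G36470 at -0.31 and AT1G74470 at 0.31. The dimmest genes included were AT1G11470, SPPA and AT5G03900, with mean log2 levels of -0.33, -0.30 and -0.29. The brightest of those that were too dim were Z-ISO, AT2G38550 and AT3G50270, with mean log2 levels of -0.36, -0.36 and -0.36. For the genes at the limit on the difference, the standard errors of the differences, 0.11 to 0.13, exceed the steps between genes on either side of it.

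Across all probes, limma called 52.5% in either direction at a Benjamini-Hochberg adjusted p under 0.05, 23.6% as higher and 29% as lower in light. Among the 53 genes 1 was called, as higher, and nothing is read from this count because the same contrast chose the genes. It was AT1G17160, the ribokinase of the plastid, which phosphorylates ribose. Dark samples 1 to 6 had deposited intensities of 1.88, 2.05, 1.82, 1.79, 1.75 and 1.78, and light samples 1 to 6 had 2.30, 2.66, 2.40, 2.49, 2.26 and 2.51. Every light value was above every dark value, and the same held after normalization, where groups did not overlap for 38.6% of all probes. The normalized difference was 0.27 ± 0.06 (SE), or 1.20-fold, and had the same sign in all 3 number pairs. A fit with the replicate number as a block called 3 of the 53 genes, AT1G17160, AT3G58830 and AT1G55440 (60.2% of all probes), and a fit with the number pairs averaged called 0 (34.9% of all probes). AT1G17160 thus has a small difference with the smallest standard error of the 53. For 47 of the 53 the difference was less than 2 standard errors, which ranged from 0.06 to 0.43 in the fit without a block. The limit on the difference favours this count, and nothing is read from it.

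Most of these genes carry only a locus identifier in the annotation used here, and the roles given below are general knowledge. A role was assigned to 22 of them after their values were seen, and the other 31 are left without one. Of 117 genes in 4 lists (commonly used reference genes, photosynthetic light reactions, the Calvin cycle, and markers of light and dark), 7 were measured by a probe of their own, 1 of which is among the 53.

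That 1 is AT2G28390 (MON1), a membrane trafficking protein of the SAND family that acts in vacuole delivery and is widely used as a reference gene for quantitative PCR in Arabidopsis. It was the only measured gene of the 24 on the list of reference genes. Dark samples 1 to 6 had deposited intensities of 0.707, 0.782, 1.03, 0.951, 0.592 and 0.509, and light samples 1 to 6 had 1.25, 1.21, 1.07, 1.04, 1.24 and 1.21. All light values exceeded all dark values as deposited, most narrowly for numbers 3 and 4, and the ratio of the means was 1.53. After normalization the groups overlapped, and the light minus dark difference was 0.26 ± 0.14 (SE, n = 6 each). It was 0.66 as deposited, 0.12 with each array centred on its median and 0.32 after cyclic loess. The normalized difference was 0.30 in the pair of numbers 1 and 2, -0.24 in 3 and 4, and 0.73 in 5 and 6. The limma F test of the difference between these 3 values, described below with its limit, gave an adjusted p of 0.00533.

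Of the photosynthesis genes on the lists, PSBY met both limits and was left out by name, so that none is among the 53. In the list of the light reactions 4 of 54 genes were measured, of which limma called 1 higher and 2 lower in light, and in the list of the Calvin cycle 2 of 24, of which 0 were called higher and 1 lower. None of the 15 markers of light and dark was measured by a probe of its own. Ranked by mean signal, the measured light reaction genes PSBW, LHB1B2, PSAN and PSBY stood at percentiles 99.6, 99.4, 98.2 and 90.6. The measured Calvin cycle genes PRK and SBPASE stood lower, at percentiles 61.4 and 55.3. Brightness depends on the probe, and which tissue was sampled was not tested. LHB1B2 had a mean deposited intensity of 17.5 ± 2.98 in dark samples and 5.83 ± 0.597 in light samples (SD, n = 6 each).

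Among genes for plastid metabolism and membranes, 6 were steady by the selection, with normalized differences from -0.19 to 0.29. They are AT1G17160, described above, AT3G58830, the phosphatase that completes phosphatidylglycerol synthesis in plastids, AT2G46910, a fibrillin of the plastid lipid-associated family, AT2G22890, which is related to the plastid desaturase FAD4, AT5G17630, the xylulose 5-phosphate translocator of the plastid envelope, and SPPA, a protease bound to the thylakoid. AT2G22890 had a deposited dark mean of 2.15 ± 0.185 and a light mean of 2.12 ± 0.279 (SD, n = 6). AT2G46910 had a deposited dark mean of 1.62 ± 0.199 and a light mean of 1.60 ± 0.149 (SD, n = 6). For this pair of genes the deposited group means themselves were close, within 1 SD of either group. Their normalized differences were -0.16 ± 0.09 and -0.19 ± 0.10 (SE). With centred arrays the differences were -0.57 and -0.55, outside the limit of 0.3. For SPPA, near the brightness limit, dark samples 1 to 6 had 0.639, 0.667, 0.797, 0.891, 0.612 and 0.682, and light samples 1 to 6 had 0.924, 1.11, 0.904, 0.993, 0.791 and 0.785. Its deposited values were higher in light within every number, although its normalized difference was -0.07 ± 0.11 (SE). AT3G58830 had a deposited dark mean of 1.17 ± 0.20 and a light mean of 1.65 ± 0.211 (SD, n = 6), and a normalized difference of 0.29 ± 0.12 (SE).

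Genes for RNA processing gave 6 further steady averages, from -0.26 to 0.24, and include the 2 genes with the widest spread between samples. AT3G13150, AT3G49740 and AT4G21170 encode pentatricopeptide repeat proteins, which bind RNA in organelles, AT3G27550 has a CRM domain, an RNA-binding domain found in organelle splicing factors, AT2G30320 belongs to the pseudouridine synthases, and AT3G25840 encodes a PRP4 kinase, which phosphorylates splicing factors. AT3G13150 had a normalized difference of 0.0019 with the largest standard error of all 53, 0.43. Dark samples 1 to 6 had deposited intensities of 1.13, 1.51, 6.47, 7.68, 6.66 and 6.99, and light samples 1 to 6 had 4.03, 3.98, 3.05, 3.20, 4.09 and 3.90. Dark samples 1 and 2 lay below every light sample and the other 4 dark samples above every light sample. The nearly equal normalized means of AT3G13150 thus come from opposite differences. Its deposited means were further apart, at 5.07 ± 2.94 for dark samples and 3.71 ± 0.459 for light samples (SD). Its difference was -0.65 with centred arrays and 0.35 after cyclic loess, both outside the limit of 0.3. For AT3G27550, dark samples 1 to 6 had 0.487, 0.301, 1.63, 1.66, 1.25 and 1.23, and light samples 1 to 6 had 1.22, 1.20, 1.29, 1.36, 1.38 and 1.41. Again only dark samples 1 and 2 were far below light. AT3G25840 differed from both in its smaller spread. Its deposited dark mean was 0.717 ± 0.0877 and its light mean 0.975 ± 0.114 (SD, n = 6). Its normalized difference was 0.02 ± 0.10 (SE), and its normalized SD over the 12 samples was 0.16. Within single numbers the normalized difference still ran from -0.41 to 0.33.

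Among regulators, 6 genes had normalized differences from -0.22 to 0.23. AT4G00870 encodes a bHLH transcription factor of jasmonate responses, AT1G80450 a VQ motif protein, AT4G33500 a protein phosphatase of the PP2C family, ATSIK and AT1G69910 protein kinases, and AT1G67800 a copine-like RING ubiquitin ligase. For AT4G00870, dark samples 1 to 6 had deposited intensities of 3.63, 3.59, 2.69, 2.57, 2.57 and 2.28, and light samples 1 to 6 had 3.64, 3.34, 3.10, 2.99, 3.11 and 3.38. Dark samples 1 and 2 lay just below light sample 1 and above all other light samples. The other 4 dark samples were below all light values. AT1G67800 showed the reverse order, with dark samples 1 to 6 at 0.737, 0.912, 1.50, 1.39, 2.23 and 2.45 and light samples 1 to 6 at 1.87, 1.83, 1.80, 1.80, 2.12 and 1.94. Dark samples 1 to 4 lay below every light value and dark samples 5 and 6 above every one.

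Beside MON1, 3 genes act in the cytosol or in vesicle traffic. ATSPS4F is a sucrose phosphate synthase, which makes the precursor of sucrose, AT4G40080 an ENTH/ANTH domain protein of clathrin-coated vesicles, and AT2G43760 the large subunit of molybdopterin synthase, which serves molybdenum cofactor synthesis. For ATSPS4F, dark samples 1 to 6 had deposited intensities of 0.507, 0.540, 1.07, 1.07, 1.02 and 1.46, and light samples 1 to 6 had 0.980, 0.914, 0.913, 1.06, 1.15 and 1.15. Dark samples 1 and 2 were again the lowest. AT4G40080 had a normalized difference of -0.11 ± 0.08 (SE) and AT2G43760 one of -0.11 ± 0.10 (SE).

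The brightest of the 53 was AT2G27290, at the 99.7th percentile of mean signal. Dark samples 1 to 6 had deposited intensities of 28.1, 27.0, 19.9, 19.6, 19.2 and 18.0, and light samples 1 to 6 had 21.4, 20.9, 15.9, 18.5, 21.3 and 20.9. The deposited mean was lower in light, 19.8 ± 2.21 against 22.0 ± 4.37 (SD, n = 6 each), while the normalized difference was 0.24 ± 0.11 (SE), so the sign depends on the scaling. The next probes in brightness after AT3G13150 and AT4G00870 were those of AT4G13680, AT2G22890, AT1G17160, AT2G47360, AT1G67800, AT2G46910, AT2G26680, AT1G07460 and AT3G26580, with mean log2 levels from 1.33 down to 0.48.

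**Figure D2:**
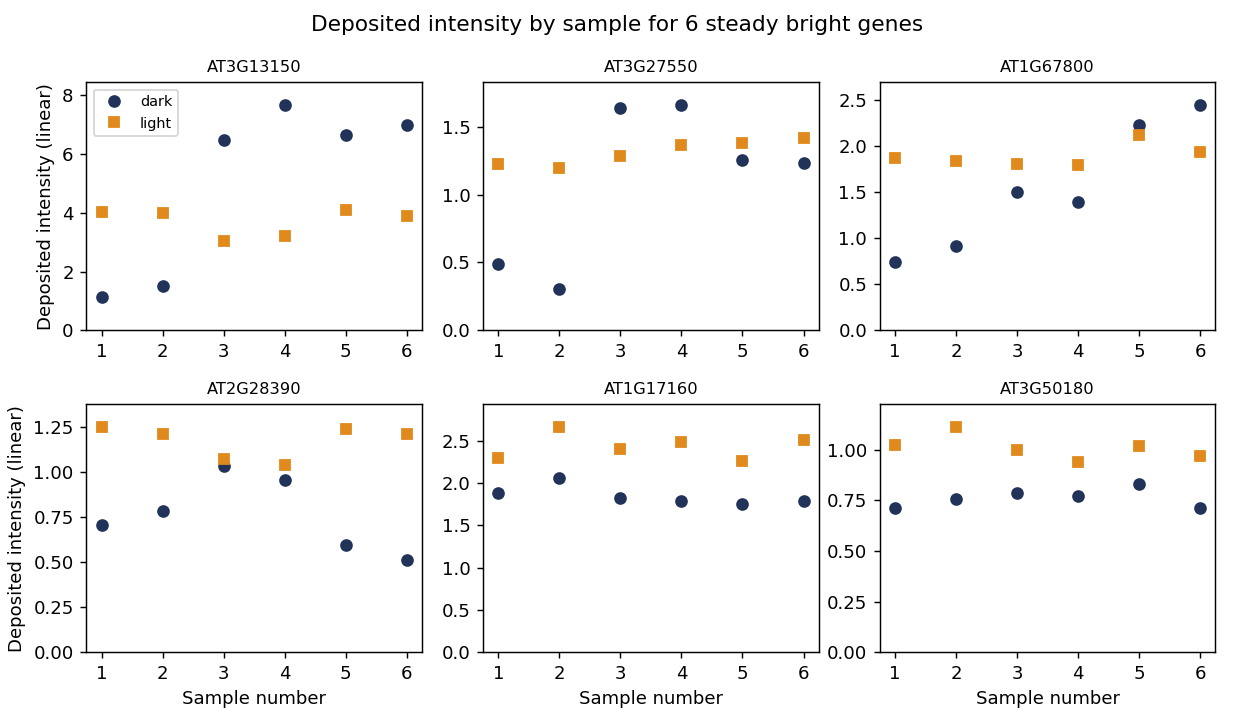
Deposited linear intensity (y axes, each from 0) by sample number (x axes) for 6 of the genes, with circles for dark and squares for light. AT3G13150, AT3G27550 and AT1G67800 have low dark samples 1 and 2, MON1 (AT2G28390) has its lowest dark values in numbers 5 and 6, and AT1G17160 and AT3G50180 have light above dark in all numbers, by gaps of varying size.

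The smallest spread belonged to AT3G50180, AT5G06990, AT4G40080, AT4G24090, AT1G17160 and AT3G25840, with normalized SDs over the 12 samples of 0.08, 0.10, 0.13, 0.14, 0.15 and 0.16. For AT3G50180, dark samples 1 to 6 had deposited intensities of 0.710, 0.756, 0.787, 0.770, 0.828 and 0.713, and light samples 1 to 6 had 1.02, 1.11, 0.998, 0.937, 1.02 and 0.966. All light values exceeded all dark values as deposited, while the normalized values spanned only 0.28 log2 units over the 12 samples and the groups differed by -0.0034 ± 0.066 (SE). AT5G06990 had a deposited dark mean of 0.892 ± 0.0557, a light mean of 1.20 ± 0.0792 (SD, n = 6), and a normalized difference of 0.08 ± 0.07 (SE). Its number pairs gave 0.08, -0.08 and 0.24. The largest spread belonged to AT3G13150, AT3G27550, AT2G46190, AT2G29870, AT2G26680 and AT1G67800, with SDs of 0.77, 0.62, 0.52, 0.47, 0.46 and 0.44. In 5 of the 53 genes all 12 normalized values lay within 0.5 log2 units, and in 14 they spanned more than 1.

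**Figure D3:**
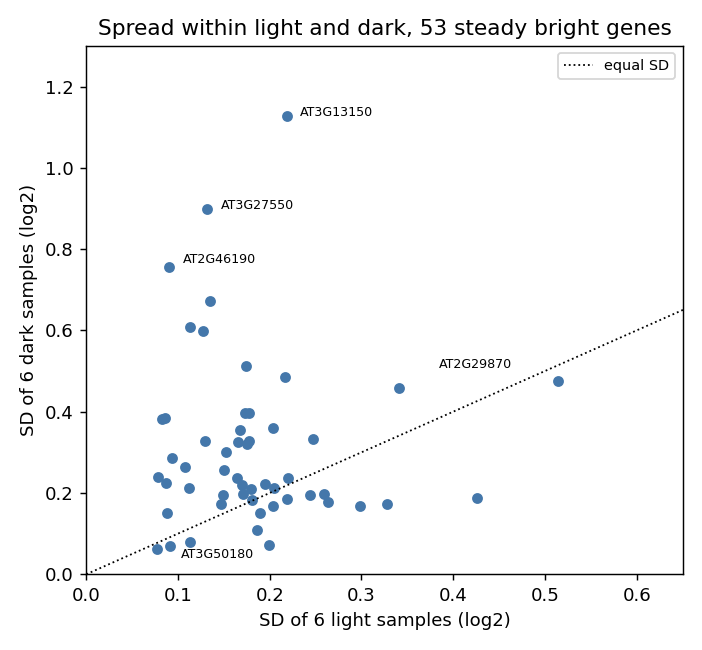
SD of the normalized log2 values of the 6 dark samples (y axis) against that of the 6 light samples (x axis) for each of the 53 genes, with the dotted line marking equality. In 38 genes the point lies above the line, and the genes with the widest dark spread, such as AT3G13150 at 1.13, have light spreads in the range of the other genes.

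Dark samples were the more variable. The normalized SD was larger in the dark than in light for 38 of the 53 genes (71.7%), with a median of 0.24 in the dark and 0.17 in light. The same held for 78.1% of all probes and for 76.2% of the other 130 bright probes that name 1 gene, so the wider dark spread was seen across the whole array. In AT3G13150 the SD was 1.13 in the dark and 0.22 in light, and in AT2G46190 it was 0.76 and 0.09.

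Whether the light minus dark difference varied between the 3 number pairs was tested with a limma F test of the interaction of light and pair. The selection did not use this quantity, since only the average over the pairs was limited. It was called (adjusted p under 0.05) for 20.4% of all probes, and for 17 of the 53 genes, 32.1%. The share was 32.3% among the other 130 bright probes that name 1 gene and 29.7% among all 1032 bright probes. The 53 genes were thus close to other bright probes in how often their difference varied, although their average difference was near 0. It was called for 20 of the 53 genes and 21.5% of all probes as deposited, 21 and 22.9% with centred arrays, and 21 and 23.9% after cyclic loess. Of the 17 genes, 16 were called under all 4 scalings tried, and AT3G26580 was not called on the values as deposited (adjusted p = 0.0626). The number pairs were defined from a likeness seen in some of these same values, so the p-values of this test partly restate that likeness. The test compares the pairs with the spread inside a pair, and if both numbers of a pair are readings of the same material its p-values are too small.

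**Figure D4:**
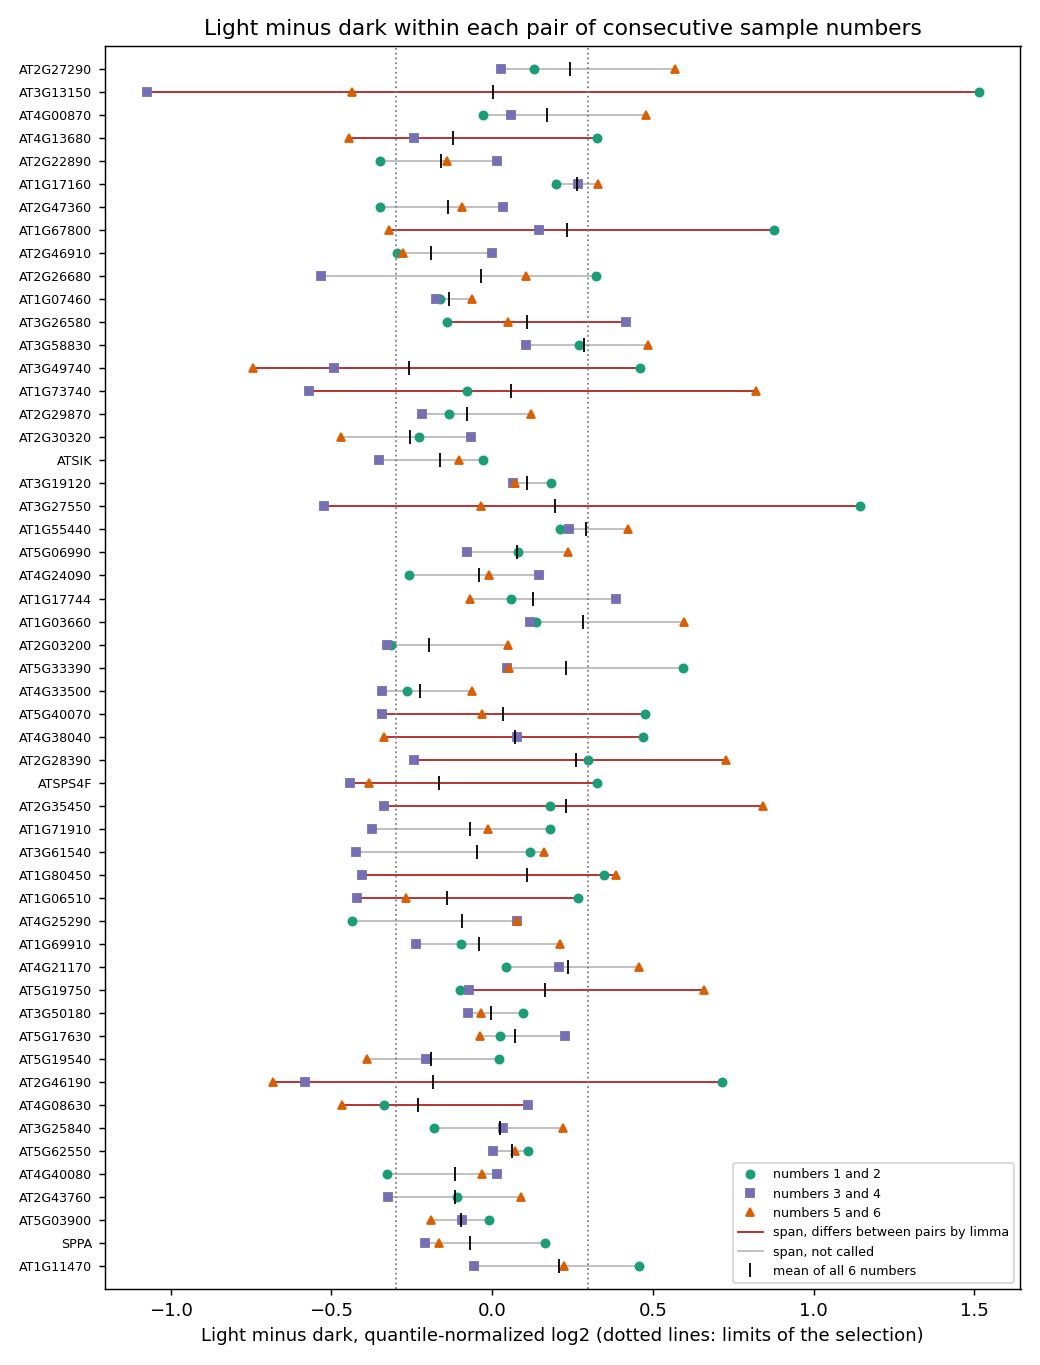
Light minus dark difference on the normalized log2 scale (x axis) of the 53 genes (y axis) in numbers 1 and 2 (circles), 3 and 4 (squares) and 5 and 6 (triangles), with the mean as a tick and the limits of the selection as dotted lines. Red lines mark the 17 genes whose difference varied between pairs, from AT3G13150 with a span of 2.59 to AT3G26580 with a span of 0.56.

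All 17 had pairs of both signs, which the limit on their average favours. The difference was highest in numbers 1 and 2 for 10 of them, in 3 and 4 for 2 and in 5 and 6 for 5. In 16 of the 17 the pair means of the dark samples spanned more than those of the light samples, with medians of 0.79 and 0.28 log2 units. Over all 53 genes this was so in 36, with medians of 0.44 and 0.31.

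The strongest cases were AT3G13150, AT2G46190, AT2G35450 and AT1G73740. AT3G13150 had differences of 1.51, -1.07 and -0.43 in the 3 pairs (adjusted p = 0.000523). AT2G46190 had 0.71, -0.58 and -0.68 (adjusted p = 0.000913), where the deposited dark values were 0.359 and 0.377 in samples 1 and 2 and 1.01 to 1.34 in the other 4. In both genes dark samples 1 and 2 were the low ones. AT2G35450 had 0.18, -0.34 and 0.84 (adjusted p = 0.00116), and AT1G73740 had -0.08, -0.57 and 0.82 (adjusted p = 0.0015), with the highest difference in numbers 5 and 6, as for MON1. All adjusted p-values are over the 3439 probes.

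In 13 of the 53 genes the difference stayed inside the limit of 0.3 in each of the 3 pairs, in 25 in exactly 2 pairs, and in 15 in 1 or none. The 13 were AT2G46910, AT1G07460, AT2G29870, AT3G19120, AT5G06990, AT4G24090, AT1G69910, AT3G50180, AT5G17630, AT3G25840, AT5G62550, AT5G03900 and SPPA, listed after their values were seen. They include the xylulose 5-phosphate translocator, the plastid fibrillin, the thylakoid protease and the PRP4 kinase. When single numbers were compared, 7 genes stayed inside the limit in all 6.

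A second quantity that the selection did not use is the common level of dark and light samples with the same number. A limma F test of the replicate number, with light against dark in the model, called 8.35% of all probes and 6.30% of all 1032 bright probes. It called 10% of the other 130 bright probes that name 1 gene, and 2 of the 53 genes, 3.77%, too few to set their share apart. These were AT2G29870 (adjusted p = 0.00619) and AT1G07460 (adjusted p = 0.0444). The test called 1 of the 53 genes and 9.57% of all probes as deposited, 1 and 9.19% with centred arrays, and 1 and 7.68% after cyclic loess. AT2G29870 was called under all 4 scalings, whereas AT1G07460 was called only after quantile normalization, with adjusted p-values of 0.074 to 0.0871 under the other 3. For AT2G29870, dark samples 1 to 6 had deposited intensities of 0.760, 0.805, 1.70, 1.78, 1.43 and 1.58, and light samples 1 to 6 had 0.988, 0.949, 1.74, 1.66, 1.68 and 1.96. Numbers 1 and 2 were low in both groups, so its light minus dark difference stayed near 0 in each pair, at -0.13, -0.22 and 0.12, while its level moved. AT1G07460 had its lowest deposited values in number 1 of both groups, 0.925 in the dark and 1.21 in light, and its other 10 values lay between 1.52 and 2.15. The next 2 genes by p, AT5G62550 (adjusted p = 0.0805) and AT5G03900 (adjusted p = 0.0891), did not pass, and had their lowest values in numbers 5 and 6.

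Across the 53 genes, the deviations of equally numbered dark and light samples from their group means correlated at 0.06 to 0.40, and 2 of 6 dark samples correlated best with the light sample of their own number. Over all 3439 probes the correlations were 0.41 to 0.65 and all 6 matched their own number. These are correlations across genes of the same arrays, given as a description.

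**Figure D5:**
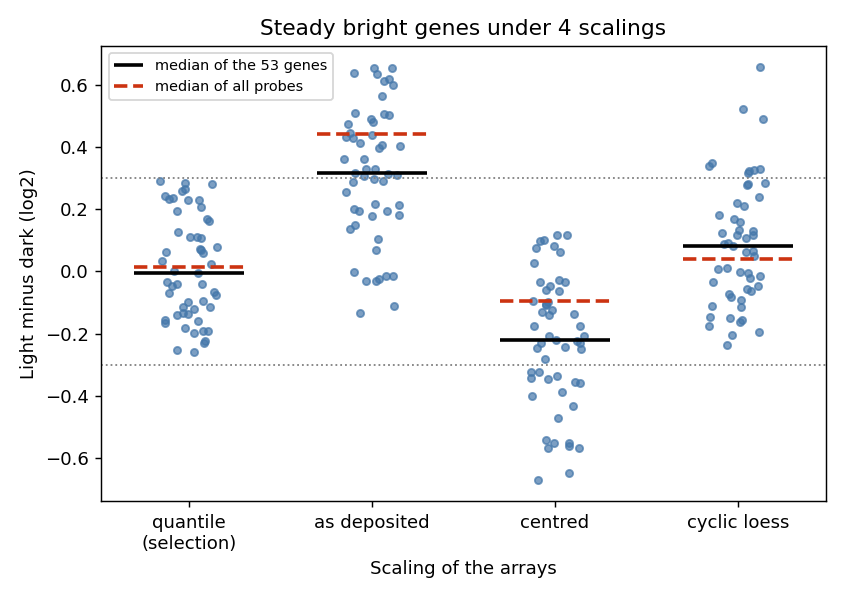
Light minus dark difference in log2 units (y axis) of the 53 genes under 4 scalings of the arrays (x axis). Solid bars are medians of the 53 genes, dashed bars medians of all probes and dotted lines the limits of the selection; the points lie between the limits only under quantile normalization, which was used to select them.

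How steady these genes look depends on the scaling. On the values as deposited the median difference of all probes was 0.44, and that of the 53 genes 0.32, with 45 genes higher and 8 lower in light. Centring each array on its median lowers the deposited difference of every gene by the same 0.54. With it the median of all probes was -0.10 and that of the 53 genes -0.22, and after cyclic loess they were 0.041 and 0.082. As deposited 23 of the 53 genes stayed inside the limit of 0.3, and the other 30 were above it. With centred arrays 34 were inside and 19 below, and after cyclic loess 44 were inside and 9 above. As deposited 25 of the 53 genes were called by limma, against 63.8% of all probes, with centred arrays 10, against 52.4%, and after cyclic loess 5, against 52.2%. The same contrast chose the genes and its limit favours low counts, so nothing is read from these counts.

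The deposited difference went with brightness. It had a median of -0.0079 in the 10 brightest genes and of 0.36 in the other 43, and across the 53 genes its correlation with the mean level was -0.57 (Pearson) and -0.46 (Spearman), a description over genes of the same 12 arrays. The selection held the normalized differences under 0.3, so the deposited ones largely follow the shift that quantile normalization removed. The trend is thus partly set by the selection and is not read as a trait of these genes. The median deposited difference was 0.33 among all 1032 bright probes and 0.44 among all probes. AT2G27290, the brightest, had -0.13 as deposited, -0.67 with centred arrays and 0.66 after cyclic loess. AT1G17160 had 0.40, -0.14 and 0.49 under the same scalings. The step from deposited to centred values is the 0.54 common to all genes, and 18 of the 53 had another sign with centred arrays than after quantile normalization.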

How the data were processed

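The deposited intensities of 3439 probes in 12 samples were used, all columns of 1 table. Of the steps before deposit, the sources used here state neither the scanner, nor the background correction, nor the scaling; that the deposited intensities are linear was read from their values. Samples were grouped and numbered by their titles. Values were quantile-normalized in R 4.3.3 with limma 3.58.1, floored in each column at the 5th percentile of its positive values, and log2-transformed. All fits ran over 3439 probes with Benjamini-Hochberg adjustment (threshold 0.05): light against dark, the replicate number beside light, and the interaction of light with number pair. The fits were tested on simulated data. Across all probes, deviations of equally numbered samples correlated at 0.41 to 0.65, above the criterion of 0.1. A pairing by number was read from the data and no label states it. Only the fits with the replicate number in the model, as an effect or as a block, used this pairing. The main fit of light against dark had no covariate, and the standard errors of the differences come from it. The platform annotation names 1 gene for 692 probes, several for 870, and 1877 are unnamed here. Of the 692, 690 (52 of the 53 genes) were matched by gene identifier to a TAIR10.1 table for symbols. Named genes were those brightest, most and least variable, smallest in p for both F tests, nearest to the limits, or in 4 gene lists written from general knowledge, and those with a known role. The members, lists and tests were chosen with earlier results of these data known. Array precision is limited by the number of samples.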

Additional observations from a re-analysis of the deposited data

Results flagged for a closer look

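The 53 genes gave 106 groups of 6 normalized log2 values, and in 6 of these groups a single sample lay apart; about 1 in 20 groups does so by chance. For AT2G27290, light sample 3 was at 4.16 and the other 5 light samples lay between 4.45 and 4.58. For AT3G26580, light sample 6 was at 0.39 and the others lay between 0.55 and 0.61. For AT4G40080, light sample 3 was at -0.15 and the others lay between -0.39 and -0.32. For AT4G33500, light sample 6 was at 0.72 and the others lay between -0.40 and -0.22. For AT5G33390, light sample 5 was at 0.45 and the others lay between -0.012 and 0.13. For AT2G03200, dark sample 6 was at -0.65 and the others lay between 0.16 and 0.36.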

How the results depend on the processing

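The number of genes selected was 50, 47 and 48 when the whole selection was repeated on the values as deposited, with centred arrays and after cyclic loess, 38 with a difference limit of 0.2, 53 with a floor at the 1st percentile, 81 with a difference limit of 0.5, 30 above the 80th percentile and 106 above the 50th. Leaving out each sample number in both groups, an alternative chosen after seeing the data, left 45 to 52 of the 53 genes inside the limit. The median light minus dark difference of the 53 genes was 0.32 as deposited, -0.22 centred, 0.082 with loess, and 0.097, -0.074 and -0.010 within the 3 number pairs. Of the 53 genes, light against dark called 25 as deposited, 10 centred, 5 with loess, 3 with the replicate block and 0 with averaged pairs, which have fewer samples, and over all probes averaged pairs called 1199 against 1807. With the replicate block 2069 probes were called. Nothing is read from the counts of the 53 genes, because the same contrast chose them. The replicate number effect was called for 1 of the 53 genes as deposited, 1 centred and 1 with loess, against 329, 316 and 264 of all 3439 probes, and for 64 of the 1032 bright probes tested alone, with fewer probes tested. The interaction of light and number pair was called for 20, 21 and 21 of the 53 genes under these 3 scalings, against 738, 788 and 823 of all probes, for 22 among bright probes alone, and for 443 bright probes against 700 of all. AT1G17160, the 1 gene called, turned from 0.27 to -0.14 with centred arrays. Called or not, 23 of the 53 genes had another sign as deposited than after quantile normalization, 18 with centred arrays and 6 with loess. Of the other values of the 53 genes under the 3 scalings, 111 moved by less than 1 SD and 47 by more. The cause of these moves was not tested. No value of signal over background accompanies the intensities, so what depth limits cannot be said.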
